A study of Mus musculus with 6 samples.

Results

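Genes of adenosine and purinergic signalling were followed in mouse dendritic cells before and after 9 days on spleen stroma. The members were the 10 rows of the deposited expression table whose symbol was Entpd1, Nt5e, Ada, Adora2a, Adora2b, P2rx4, P2rx7, P2ry6, P2ry12 or P2ry14, out of 15282 genes in the table, and none was absent. Both groups started from wild type C57/BL6 bone marrow kept for 6 days with GM-CSF and IL-4 and then for 24 hours with LPS. The maDC group was the CD11c+ fraction taken with magnetic beads at that point, and the diffDC group was made from such cells by a further 9 days of coculture with spleen stromal cells. Each group had 3 libraries per the labels, numbered 1 to 3, but the table gave 1 pooled read number per gene and group, so no value per library and no test across libraries could be made. Coculture, time in culture and any carried-over stroma cannot be told apart in this design, and the sources used here do not say whether diffDC were separated from the stroma before RNA extraction.

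Cells that are stressed or damaged release ATP, which acts outside the cell as a danger signal through P2X channels and P2Y receptors. Surface enzymes cut this ATP down to adenosine: CD39, the product of Entpd1, removes phosphates from ATP and ADP, and CD73, the product of Nt5e, turns AMP into adenosine. Adenosine acts through its own receptors, and those that raise cyclic AMP dampen the inflammatory output of dendritic cells and macrophages, and adenosine deaminase, the product of Ada, ends the signal by converting adenosine to inosine.

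The pools held 69190437 reads in maDC and 89836110 in diffDC. Read numbers were scaled with TMM, a library factor that trims extreme genes, and a call of higher or lower in diffDC required a scaled change of 2-fold or more and a 95% counting interval (exact) clear of no change. Counting noise is all that such an interval covers, so differences between cultures lie outside it. Markers of several cell types moved with the comparison. Of 10 conventional dendritic cell markers, 9 fell and none rose, and their summed level went from 10936 to 907 CPM, a read number scaled to a total common to both pools. The exception was Itgax, which encodes CD11c, the marker of the bead selection, with a log2 ratio of -0.21. Its transcript was thus present in both pools, but RNA reads do not show CD11c on the cell surface. Of 10 macrophage markers, 9 rose, from a summed 1369 to 15530 CPM. Of 13 measured fibroblast or reticular stroma markers, 10 rose and 1 fell, from a summed 14.7 to 895 CPM, and none was at 0 in either pool. Endothelial markers went from a summed 178 to 47.3 CPM, platelet markers from 48.7 to 151 CPM and microglia markers from 42.4 to 248 CPM. Of 7 measured endothelial markers 1 rose and 5 fell, and Kdr alone went from 160 to 41.7 CPM. Of 6 platelet markers 2 rose and 3 fell, and Pf4 alone went from 35.3 to 144 CPM. Of 5 measured microglia markers 4 rose and 0 fell. B cell, T cell, neutrophil, and mast cell or basophil markers had summed levels of 0.712, 2.96, 24.5 and 4.03 CPM in diffDC, against 0.954, 6.76, 32.9 and 57.6 CPM in maDC. Of 6 neutrophil markers 4 fell, while Mpo rose 14.4-fold and Elane 12.9-fold. In such bulk RNA, fewer cells of a type and less RNA per cell cannot be told apart, and the part these cell types had in the results on the purinergic genes was not tested.

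Of the 10 genes, 6 rose in diffDC, 2 fell and 2 were not called. The genes that rose were the 3 enzyme genes Entpd1, Nt5e and Ada and the nucleotide receptor genes P2rx7, P2ry6 and P2ry12, by 2.98-fold to 53.2-fold. The genes that fell were the adenosine receptor gene Adora2a, 70.1-fold lower, and the nucleotide sugar receptor gene P2ry14, 4.60-fold lower. Adora2b and P2rx4 were within 1.19-fold of no difference. For background, 23.3% of all 15281 genes with a ratio were called higher by the same rule and 21.0% lower, 44.3% in either direction. The median log2 ratio of the 10 genes was 1.73 and that of all genes was 0.03. The genes were chosen with earlier results of these data known, so this count is a description and not a test. The authors' deposited table listed a q-value under 0.05 for 10 of the 10 genes, including Adora2b and P2rx4, but those p-values compare the pooled reads. The share of all genes with such a q-value was not counted, so this count is no result about the 10 genes.

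**Figure D1:**
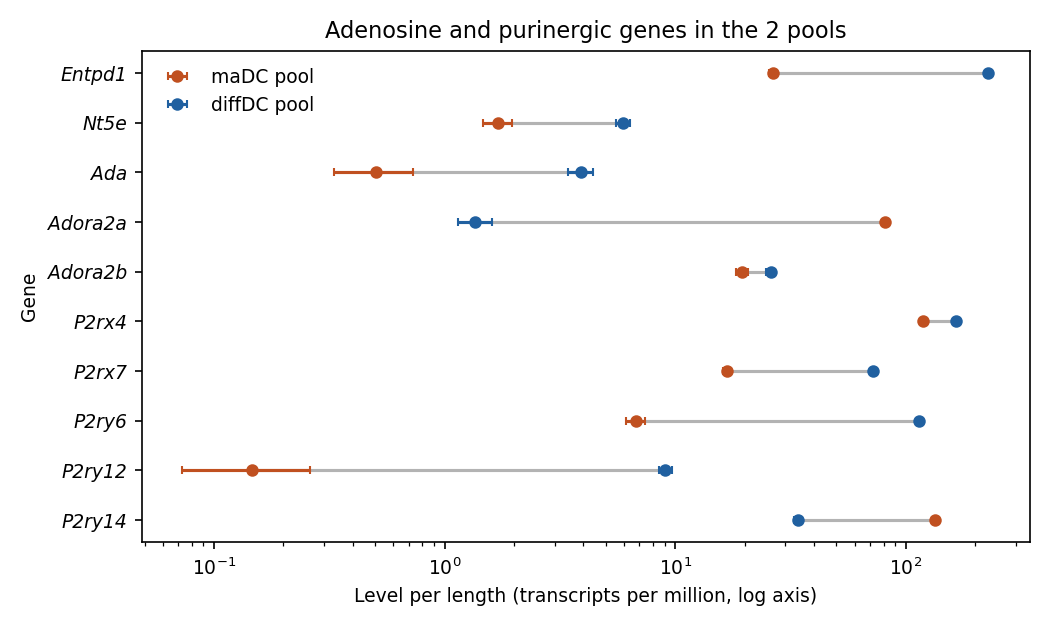
Level per length of each gene in the maDC pool (orange) and the diffDC pool (blue), in TPM (reads per base of gene, scaled to the same total in each pool) on a log axis, with 1 pooled value a group and bars for the 95% counting interval. Adora2a moves from 81.3 to 1.36 and P2ry12 from 0.146 to 9.06, while P2rx4 is at 118 and 164.

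The order of the genes changed between the pools. Levels between genes were compared per length, as TPM, computed from the read numbers and the gene lengths in the authors' deposited table. TPM and CPM were scaled to pool totals and not with TMM, so their changes between pools differ from the folds given. In maDC the order from the top was P2ry14, P2rx4, Adora2a, Entpd1, Adora2b, P2rx7, P2ry6, Nt5e, Ada and P2ry12. In diffDC it was Entpd1, P2rx4, P2ry6, P2rx7, P2ry14, Adora2b, P2ry12, Nt5e, Ada and Adora2a. Of the 9 pairs of neighbours in each order, 0 had overlapping counting intervals, though the spread between libraries is unknown. P2rx4 held place 2 in both pools, Nt5e and Ada stayed at places 8 and 9, and Adora2a went from place 3 to place 10.

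Among the 3 enzyme genes of the 10, that for the first step was by far the most abundant. Entpd1, which encodes CD39, had 3543 reads in maDC and 38515 in diffDC, or 26.5 and 228 TPM. That is 7.36-fold higher after scaling, with a counting interval of 7.11 to 7.62, and it took the gene from percentile 67.6 of all genes to percentile 95.6. Nt5e, which encodes CD73, had 193 and 850 reads, or 1.71 and 5.95 TPM, 2.98-fold higher with an interval of 2.55 to 3.50, short of a 3-fold limit. Its level stayed in the lower part of the table, at percentiles 31.7 and 38.9. CD73 is also a familiar surface marker of mesenchymal stroma, and the summed stroma markers went from 14.7 CPM in maDC to 895 CPM in diffDC. Of the 13 measured, 10 rose, but Thy1 fell from 21 to 3 reads, and Pdpn and Postn were not called. Any part of stroma in the Nt5e reads was not tested. Ada had 27 and 264 reads, or 0.502 and 3.89 TPM, 6.62-fold higher with an interval of 4.45 to 10.2.

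Ratios between these enzymes within 1 pool do not depend on the library factor. Per length, Entpd1 exceeded Nt5e 15.5-fold in maDC and 38.3-fold in diffDC, so the excess of the CD39 gene over the CD73 gene grew 2.47-fold. Of the reads of the pair, Entpd1 held 94.8% in maDC (exact Clopper-Pearson interval 94.1% to 95.5%) and 97.8% in diffDC (97.7% to 98.0%). Nt5e, whose product makes adenosine, exceeded Ada, whose product removes it, 3.40-fold per length in maDC and 1.53-fold in diffDC. Nt5e held 87.7% of their joint reads in maDC (interval 82.6% to 91.8%, with 27 reads of Ada) and 76.3% in diffDC (73.7% to 78.8%). The ratio of Entpd1 to Ada reads changed 1.11-fold, a value that rests on 27 reads of Ada in maDC. Of the reads of this pair, Entpd1 held 99.2% in maDC (interval 98.9% to 99.5%) and 99.3% in diffDC (99.2% to 99.4%).

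Among the adenosine receptor genes, Adora2a fell below Adora2b, which itself was not called. Adora2a encodes the A2a receptor and Adora2b the A2b receptor, both of which couple to the stimulatory G protein Gs, the A2b type needing more adenosine. Adora2a had 6692 reads in maDC and 141 in diffDC, or 81.3 and 1.36 TPM. It was 70.1-fold lower, with an interval of 59.3 to 83.4, and moved from percentile 87.0 of all genes to 26.9. Adora2b had 1135 and 1906 reads, or 19.5 and 25.9 TPM, a log2 ratio of 0.18 with an interval of 0.08 to 0.29, and was not called. Of the reads of this pair, Adora2a held 85.5% in maDC (interval 84.7% to 86.3%) and 6.89% in diffDC (5.83% to 8.07%). Per length, Adora2a exceeded Adora2b 4.18-fold in maDC, and Adora2b exceeded Adora2a 19.0-fold in diffDC. Adora3, the A3 receptor gene, which couples to inhibitory Gi proteins, had 7 reads in maDC and 137 in diffDC and rose 13.2-fold, with an interval of 6.26 to 33.6. Adora1 was listed but not measured. Summed over the 3 genes measured, the level per length went from 101 to 28.7 TPM. Adora2a made up 80.6% of it in maDC, and Adora2b made up 90.2% of it in diffDC.

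**Figure D2:**
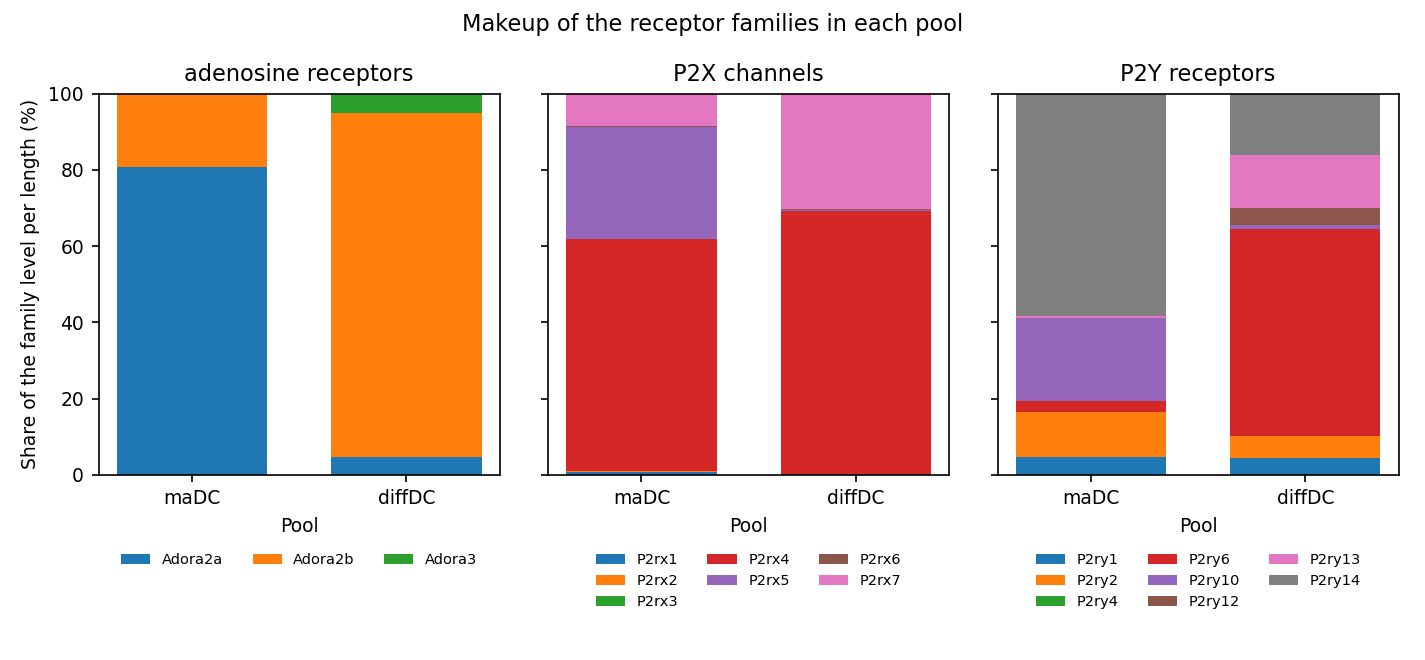
Share of each gene in the summed level per length of its receptor family, in percent, for the maDC and diffDC pools (1 pooled value a group, no error bars). Among the 3 adenosine receptor genes measured, the share of Adora2a falls from 80.6% to 4.74%. That of Adora2b, a gene not called, goes from 19.3% to 90.2%. P2rx5 drops to 0.210% of the P2X channels, and P2ry6 takes 54.1% of the P2Y receptors in diffDC against 2.95% in maDC.

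The ATP-gated channels differed between a steady and a rising member. P2rx4 encodes a channel found largely on lysosomes of myeloid cells and opened by low ATP, and P2rx7 encodes the channel that high ATP opens and that leads to inflammasome activation and IL-1beta release. P2rx4 had 10070 and 17646 reads in maDC and diffDC, or 118 and 164 TPM, with a log2 ratio of 0.25 with an interval of 0.21 to 0.28, and was not called. P2rx7 had 2186 and 11868 reads, or 16.8 and 72.3 TPM, and rose 3.67-fold, with an interval of 3.51 to 3.85. Per length, P2rx4 exceeded P2rx7 7.04-fold in maDC and 2.27-fold in diffDC. P2rx7 thereby went from 8.64% to 30.4% of the summed level of the 7 P2X genes, and P2rx4 from 60.8% to 69.0%.

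Of the 5 other P2X channel genes, none rose and 3 fell, beside 23.3% of all genes higher and 21.0% lower by the same rule. P2rx5 had 4710 and 52 reads, 134-fold lower with an interval of 102 to 179, and its share of the P2X level went from 29.3% to 0.210%. P2rx1 went from 116 to 52 reads, 3.30-fold lower, and P2rx2 from 31 reads to 1 read, a ratio of 45.8 with an interval of 7.63 to 1867. P2rx3 with 11 and 23 reads and P2rx6 with 14 and 19 reads were not called.

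P2Y receptors are G protein-coupled, and their ligands differ. The product of P2ry6 senses UDP and promotes phagocytosis in microglia, that of P2ry12 senses ADP and is the target of antiplatelet drugs, and that of P2ry14 senses UDP-glucose and related nucleotide sugars. P2ry6 had 408 reads in maDC and 8738 in diffDC, or 6.73 and 114 TPM, and rose 14.5-fold, with an interval of 13.1 to 16.0. It moved from percentile 45.1 to percentile 90.5 of all genes. P2ry12 had 11 and 864 reads, or 0.146 and 9.06 TPM, and rose 53.2-fold, with an interval of 29.6 to 107 that is wide because of the 11 reads. It remained below the median gene, at percentile 44.0 in diffDC. P2ry14 went the other way, from 7524 to 2418 reads, or 133 to 34.0 TPM. It was 4.60-fold lower, with an interval of 4.39 to 4.81, and moved from place 1 to place 5 among the 10 genes.

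The P2Y receptors measured thus differed in direction, and their balance shifted. Of the reads of P2ry12 and P2ry14, P2ry12 held 0.146% in maDC (interval 0.0729% to 0.261%) and 26.3% in diffDC (24.8% to 27.9%), a 244-fold change in their ratio. The ratio of P2ry6 to P2ry14 reads changed 66.6-fold, from 5.14% of their joint reads in maDC to 78.3% in diffDC. Over the 8 P2Y genes measured, the summed level per length was 228 TPM in maDC and 211 TPM in diffDC. P2ry14 made up 58.4% of it in maDC and 16.1% in diffDC, while P2ry6 went from 2.95% to 54.1%. The 8 genes, which share the P2ry symbol, include P2ry10, which went from 21.6% to 1.18%.

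P2ry12 is a marker of both microglia and platelets. Of the 5 measured microglia markers, 4 rose, among them Tmem119 from 59 to 493 reads, and Siglech had 2 and 3 reads. Gpr34, which is itself 1 of those microglia markers, had 1 read in maDC and 3674 in diffDC. Of the 6 platelet markers 2 rose and 3 fell, with Pf4 at 2442 and 12956 reads, Itga2b at 559 and 36.8 reads and Gp9 at 27 and 0 reads.

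P2ry12 and P2ry14 are neighbours, and so are P2rx7 and P2rx4. In GRCm38, P2ry14 spans chromosome 3 positions 59113855 to 59153618 and P2ry12 positions 59216272 to 59262871, both on the minus strand. They lie with Gpr171 and P2ry13 inside Med12l, a gene on the plus strand at 59005825 to 59318682. Gpr171, a receptor gene related to P2Y receptors, fell 2.90-fold and has its start 161 kb from that of P2ry12. P2ry14 fell with its start 109 kb away, and P2ry13, another ADP receptor gene, rose 23.5-fold with its start 52.0 kb away. The host gene Med12l had 144 and 215 reads in maDC and diffDC, and its log2 ratio was 0.02 with an interval of -0.30 to 0.33. The sources used here do not state the use of strand in the counting, so reads of Med12l and of these genes may not be separable. Med12l held more reads in maDC than P2ry12 with 11 and P2ry13 with 86, and fewer than either in diffDC. It held fewer than P2ry14 in both pools.

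**Figure D3:**
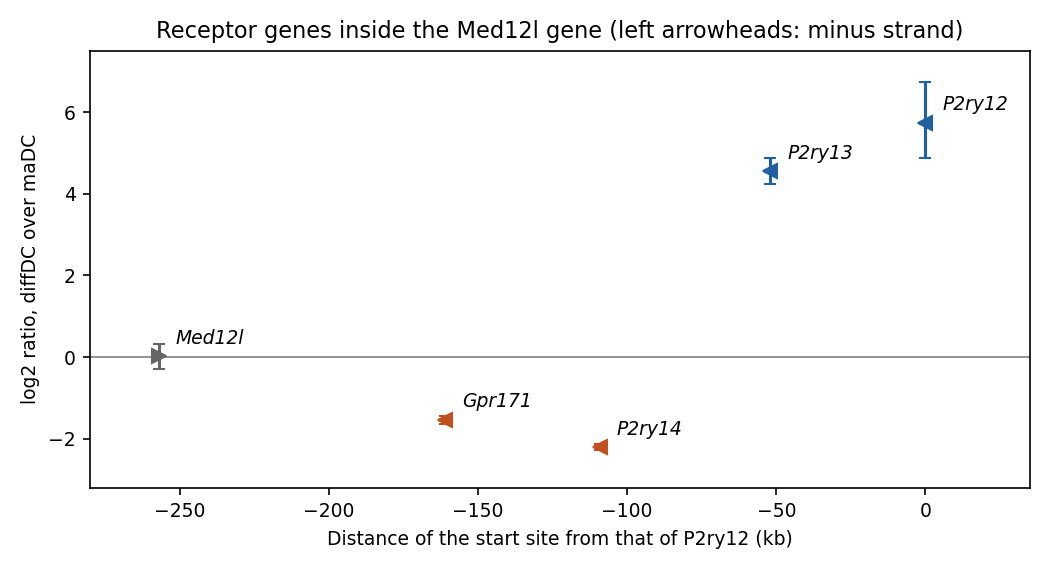
log2 ratio of diffDC over maDC for the genes at the Med12l locus against the distance of each start site from that of P2ry12 in kb, with bars for the 95% counting interval and 1 pooled value a group. P2ry12 and P2ry13 sit at 5.73 and 4.55, Gpr171 and P2ry14 at -1.54 and -2.20, and Med12l at 0.02.

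On chromosome 5, P2rx7 (122643911 to 122691432) and P2rx4 (122707544 to 122729738) lie on the plus strand, 16.1 kb apart. The windows before the start sites of these 4 genes are shown because neighbours at both loci had different ratios. Each is 250 bases ending at the base before a RefSeq start site in GRCm38.p6, read 5′ to 3′ on the gene's strand, with capitals for matches to the motifs searched.
P2ry12, chr3:59262986-59263235, minus strand: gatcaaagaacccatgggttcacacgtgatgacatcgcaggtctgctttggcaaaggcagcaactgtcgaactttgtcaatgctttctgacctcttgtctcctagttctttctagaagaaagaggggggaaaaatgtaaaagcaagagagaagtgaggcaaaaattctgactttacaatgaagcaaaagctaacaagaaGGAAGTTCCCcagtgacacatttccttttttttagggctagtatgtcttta
P2ry14, outermost start, chr3:59153493-59153742, minus strand: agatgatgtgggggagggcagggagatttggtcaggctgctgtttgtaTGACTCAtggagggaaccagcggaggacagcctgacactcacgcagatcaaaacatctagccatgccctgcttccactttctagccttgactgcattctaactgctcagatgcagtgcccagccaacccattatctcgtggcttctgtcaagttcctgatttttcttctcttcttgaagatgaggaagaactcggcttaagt
P2rx7, outermost start, chr5:122643677-122643926, plus strand: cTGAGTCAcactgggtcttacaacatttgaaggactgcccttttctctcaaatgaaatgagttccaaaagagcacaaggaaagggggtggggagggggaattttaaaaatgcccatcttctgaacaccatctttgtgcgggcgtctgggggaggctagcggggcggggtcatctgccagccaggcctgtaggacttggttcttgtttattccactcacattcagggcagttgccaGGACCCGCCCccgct
P2rx4, chr5:122707294-122707543, plus strand: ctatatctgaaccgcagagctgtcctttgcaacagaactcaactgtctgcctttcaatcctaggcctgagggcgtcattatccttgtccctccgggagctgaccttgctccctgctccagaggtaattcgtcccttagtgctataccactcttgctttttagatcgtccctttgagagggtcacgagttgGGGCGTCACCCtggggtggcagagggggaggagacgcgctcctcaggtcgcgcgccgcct

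Both strands were searched for 4 motifs: AP-1 as TGANTCA, CRE as TGACGTCA, NF-kB as GGGNNNNNCC and PU.1 as GAGGAAGT. AP-1 letters were found in P2ry14, which fell, starting 202 bases before the start site, and in P2rx7, which rose, 249 bases before it. P2ry14 has 4 listed starts, and the second also held AP-1 letters. NF-kB letters were found in the printed windows of P2ry12, P2rx7 and P2rx4, in P2rx4 as 2 overlapping matches on opposite strands. For P2ry14 they were found at the last of its 4 starts, 103 bases before it, so all of these genes held them at some start. Of all 32851 RefSeq windows of this length, 6.75% held the AP-1 letters and 45.8% the NF-kB letters. Across the 13 windows listed for 8 of the 10 genes, AP-1 letters were in 3 windows of 2 genes and NF-kB letters in 7 windows of 7 genes. CRE letters, in 1.55% of all windows, and PU.1 letters, in 2.44%, were in 0 of the 13. A match is a description of the sequence and not a binding site. Adora2a and P2ry6 had no entry.

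The remaining members are annotated as protein coding in GRCm38. Entpd1 spans 40612366 to 40741602 on the plus strand of chromosome 19, Nt5e 88327197 to 88372092 on the plus strand of chromosome 9, and Ada 163726584 to 163750239 on the minus strand of chromosome 2. Adora2a spans 75316877 to 75334784 on the plus strand of chromosome 10, Adora2b 62248984 to 62266453 on the plus strand of chromosome 11, and P2ry6 100937630 to 100974649 on the minus strand of chromosome 7. The read numbers are for whole genes. They were whole numbers in both pools for 7 of the 10, and carried decimals for Entpd1, Adora2a and P2ry14, whose shared reads could have been divided.

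**Figure D4:**
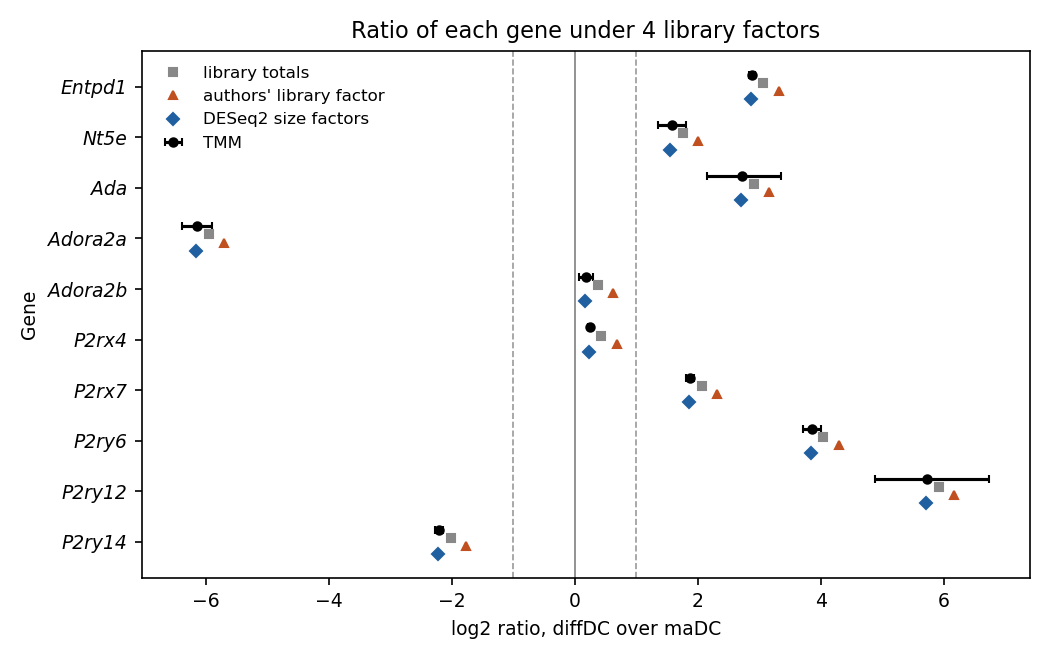
log2 ratio of diffDC over maDC for each gene under 4 library factors, with the 95% counting interval drawn for TMM and dashed lines at the 2-fold limits (1 pooled value a group). The 6 genes that rose and the 2 that fell stay outside the limits under each factor, and Adora2b and P2rx4 stay inside.

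The choice of library factor moved each ratio by the same amount and changed no call among the 10 genes. The factor behind the authors' deposited log2 ratios added 0.44 to every log2 ratio. With it the 10 genes again gave 6 higher and 2 lower, against 32.2% of all genes higher and 15.7% lower, or 47.9% in either direction. In the authors' deposited table the log2 ratios were 6.17 for P2ry12, 4.29 for P2ry6, 3.32 for Entpd1, -1.76 for P2ry14 and -5.69 for Adora2a.

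Beyond the 10 genes, lists of 79 other genes of the pathway were examined, of which 72 were in the table. Of these, 19 rose and 24 fell, with a median log2 ratio of -0.35, against 0.03 for all genes. By the same rule 23.3% of all genes were higher and 21.0% lower. Those shares are the background for the counts of each list below as well. Under the factor of the authors, 22 of the 72 were higher and 19 lower, beside 32.2% and 15.7% of all genes. The median of the 72 was then 0.08, against 0.46 for all genes. The part that the macrophage, stroma and other cell types given above had in these changes was not tested.

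**Figure D5:**
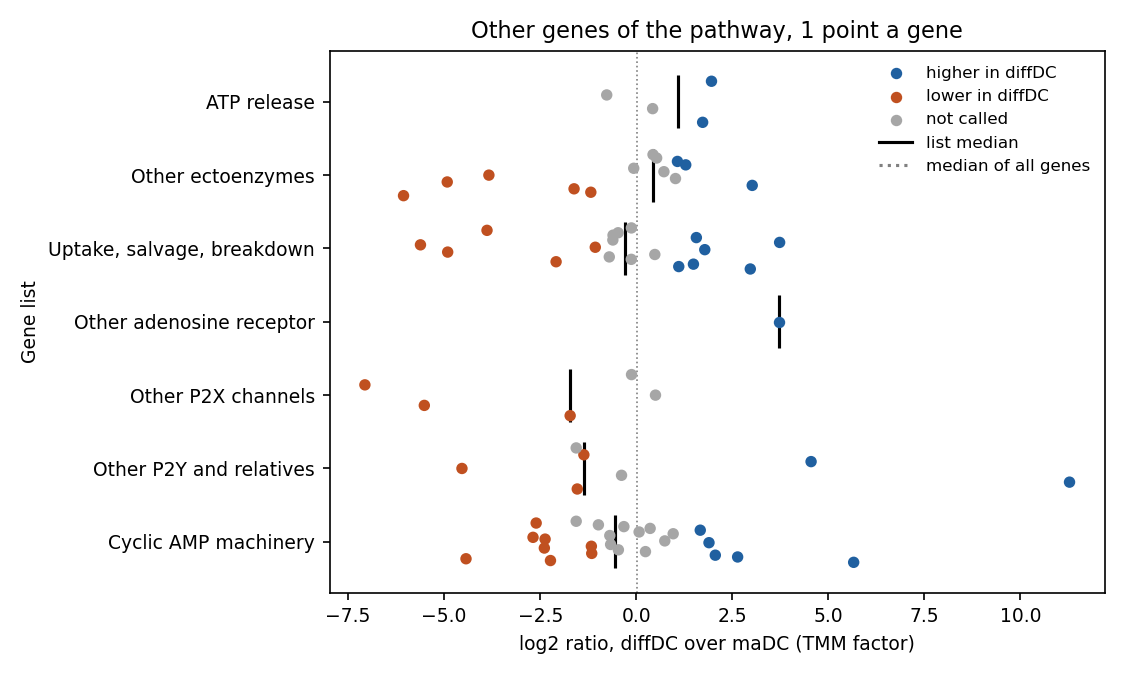
log2 ratio of diffDC over maDC (TMM factor) for 72 other genes of the pathway by role, 1 point a gene, coloured by call, with black lines for list medians and a dotted line for the median of all genes at 0.03. Cyclic AMP and ectoenzyme genes spread to both sides. Of the 5 other P2X channel genes 0 are called higher and 3 lower, beside 23.3% and 21.0% of all genes.

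Genes for the release of ATP were few. Of 4 measured, 2 rose and none fell. Slc17a9, the vesicular nucleotide transporter, went from 164 to 942 reads, 3.89-fold higher with an interval of 3.29 to 4.62. The connexin gene Gja1 rose 3.31-fold, from 106 to 519 reads, and the pannexin channel gene Panx1 had a log2 ratio of -0.77 and was not called.

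Other enzymes acting on nucleotides outside cells or in the secretory pathway moved both ways, with 3 of 13 higher and 5 lower. Enpp1, which cleaves ATP to AMP and degrades the messenger cGAMP, went from 304 to 3642 reads, 8.11-fold higher with an interval of 7.21 to 9.15. Acpp, a phosphatase whose membrane form can turn AMP into adenosine, fell from 26884 to 596 reads, 66.6-fold lower with an interval of 61.4 to 72.4. Per length, Acpp stood at 193 TPM in maDC, above each of the 10 genes, and at 3.39 TPM in diffDC, beside 1.71 and 5.95 TPM for Nt5e, the other AMP-cleaving gene. Enpp2, which encodes autotaxin, fell 30.3-fold, and the NAD-consuming enzyme genes Cd38 and Bst1 fell 3.07-fold and 2.27-fold. The call of Bst1 was lost with library totals and with the authors' factor, at log2 ratios of -0.996 and -0.746.

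Genes for adenosine uptake, salvage and breakdown gave 6 higher and 5 lower of 18. The nucleoside transporter gene Slc28a2 rose 13.3-fold, from 181 to 3555 reads, with an interval of 11.4 to 15.5, and the equilibrative transporter gene Slc29a1 rose 2.96-fold. Adk, the adenosine kinase that returns adenosine to AMP inside cells, rose 2.15-fold, from 1665 to 5299 reads. Pnp2, one of a pair of closely related purine nucleoside phosphorylase genes, fell 49.1-fold, from 1296 to 39.4 reads, with an interval of 35.7 to 69.4. Pnp, the other of the pair, fell 2.09-fold, from 24787 to 17486 reads, and reads could have been divided between them. The call of Pnp was lost in the same way, at log2 ratios of -0.88 and -0.63. Dpp4, whose product anchors adenosine deaminase on the surface of human cells, fell 30.0-fold, from 1525 to 75 reads.

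Other P2Y receptors and their relatives gave 2 higher and 3 lower of 7. Gpr34, a receptor of lysophosphatidylserine, rose from 1 to 3674 reads, a ratio of 2487 with an interval of 446 to 98245. P2ry13 rose from 86 to 2980 reads. P2ry10 fell 23.2-fold, from 4385 to 279 reads, with an interval of 20.6 to 26.3, and has a close relative with which reads could have been shared. P2ry2, the receptor for ATP and UTP, fell 2.57-fold, from 2539 to 1458 reads, but was not called with the authors' factor, at a log2 ratio of -0.93. P2ry1 with 1270 and 1439 reads and P2ry4 with 6 and 3 reads were not called.

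The cyclic AMP machinery downstream of Gs-coupled adenosine receptors gave 5 higher and 8 lower of 24. Adenylyl cyclase genes, whose products make cyclic AMP, moved apart. Adcy3 rose 50.6-fold, from 26 to 1943 reads, with an interval of 34.4 to 77.6, and Adcy7 rose 6.23-fold, from 4837 to 44532 reads. Adcy6 fell 21.6-fold, from 20408 to 1397 reads, with an interval of 20.4 to 22.8. Phosphodiesterases, which break cyclic AMP down, also differed, with Pde4b 5.18-fold and Pde4d 6.44-fold lower and Pde3b 3.72-fold higher. Gnas, which encodes the Gs alpha subunit, had 34148 and 31775 reads and a log2 ratio of -0.67, and Creb1, a transcription factor activated through cyclic AMP, had a log2 ratio of 0.24, and neither was called.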

How the data were processed

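RNA sequencing of 6 libraries, 3 of maDC and 3 of diffDC, was deposited as 1 table with a pooled read number per gene and group. The authors' deposited read numbers were taken to be expected counts, since many carried decimals, and whole values within 0.005 made up 58.2% in maDC and 57.5% in diffDC. Aligner, counter and pooling are not given in the sources used here. The submitters' processing notes named GRCm38.p4 and mm10. Per the file headers, the table also held the authors' log2 ratio, a p-value and a q-value after Storey, and gene lengths.

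Read numbers were rounded and scaled with TMM (edgeR 4.0.16, R 4.3.3), a log2 library ratio of 0.56. Ratios have exact Clopper-Pearson 95% intervals and levels exact Poisson intervals, both for counting error only. A read number of 0 was replaced by 0.5. TPM was computed here from the authors' deposited lengths, which the sources do not define further. The calling procedure was tested on simulated data. Alternatives were library totals, the authors' factor, DESeq2 1.42.0 size factors, a minimum mean of 5 CPM, 1 read for 0 and a 3-fold limit.

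The 10 members, the lists and the pairs were chosen with earlier results of these data known. Named were all 10, every listed receptor, and from each list the largest rise and fall among called genes with at least 100 reads in 1 pool. The receptor family shares, Gja1, Panx1, Enpp2, Cd38, Bst1, Slc29a1, Adk, Pnp, Dpp4, Adcy7, Pde3b, Pde4b, Pde4d, Gnas, Creb1 and the host gene Med12l were added after their values were seen. With 2 pooled values a gene, none was named for a like pattern. Gene positions are from GENCODE M21 (GRCm38) and promoter windows from RefSeq (GRCm38.p6). The other steps ran in Python 3.11.15 with scipy 1.17.1, numpy 2.4.6, pandas 2.3.3 and, for figures, matplotlib 3.10.9.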

Additional observations from a re-analysis of the deposited data

How the results depend on the processing

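Among the 10 members, no gene changed direction under any of the 6 alternatives, and the call of 1 was lost, that of Nt5e under the 3-fold limit. The median log2 ratio of the members was 1.91 with library totals, 2.16 with the authors' library factor and 0.87 over the 8 members with a mean of at least 5 CPM, which leave out Ada and P2ry12. The median of the other pathway genes was -0.17 with library totals, 0.084 with the authors' factor and -0.17 with the CPM minimum. The median of all genes was 0.21 with library totals and 0.46 with the authors' factor. With the CPM minimum, 1998 of all genes were higher and 1748 lower, since fewer genes were tested. Of the other pathway genes, 5 lost their call and 3 gained one with the authors' factor, which is an added constant. P2ry2 was among those that lost it, at a log2 ratio of -0.93. Under the 3-fold limit the other pathway genes gave 14 higher and 18 lower. These included 1 ectoenzyme gene and 3 uptake, salvage and breakdown genes higher, and 1 gene of the P2Y receptors and relatives lower. Of all 15281 genes with a ratio, 2476 were higher and 2267 lower at that limit. No paired analysis was possible because the deposited table pools the 3 libraries of each group, and for the same reason leaving out each replicate was not run. P2ry12 and Ada rest on 11 and 27 reads in maDC, which sets the width of their intervals.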
